A study of Homo sapiens with 16 samples.

Results

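The zinc finger knockdowns are the 10 arrays of the series on which a zinc finger gene was silenced, namely ZNF528, ZNF665, ZNF708, ZNF91, ZNF85, ZNF43, ZNF100, ZNF431, ZNF429 and ZNF254. They were chosen by the silenced gene in each array's title and make up 10 of the 16 arrays. They were compared with the other knockdowns, the 4 arrays titled GTF21, IGF2R, IGFBP2 and RASSF8, and the 2 siCON arrays (non-silencing siRNA) gave a level only. All 16 arrays carry RNA of GIST-T1, a human gastrointestinal stromal tumor (GIST) cell line with a heterozygous KIT exon 11 mutation, reverse transfected with siRNA at 50 nM. The siRNAs of a gene were pooled in the study's library. The siCON arrays are labelled 24 h and 72 h, and for the knockdown arrays no time of harvest was found in the labels or the methods. For the earlier control array the time in the paper differs from the label. Expression was measured on Affymetrix exon arrays as log2 values for 22011 transcript clusters (1 cluster is usually 1 gene), and a difference of 1 on this scale is a 2-fold difference in signal. Each knockdown is 1 array of 1 gene, so the 10 and 4 arrays are replicates of a kind of target and not of a knockdown. Nothing says that they came from separate cultures, and the p-values measure the spread between these arrays, which includes the effects of different genes.

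Most of these zinc finger genes encode KRAB zinc finger proteins, which bind DNA through arrays of C2H2 fingers and recruit the corepressor TRIM28, the histone methyltransferase SETDB1 and heterochromatin proteins to silence their targets. Many of them sit in the gene cluster of 19p12 and resemble each other closely in sequence. The other 4 targets act elsewhere: GTF2I is a general transcription factor, IGF2R clears IGF2 from the cell surface and carries lysosomal enzymes, IGFBP2 binds insulin-like growth factors, and RASSF8 is a Ras association domain protein at cell junctions. The comparison asks whether silencing a zinc finger gene leaves another expression profile than silencing a gene of another kind.

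The silenced genes and the cell line were checked first. Of the 14 targets, 13 had a cluster, 5 of them a cluster of their own, and on 11 arrays the targeted cluster lay lowest among the 14 knockdown arrays. ZNF708 had no cluster with its symbol. The cluster of ZNF429, shared with LINC00664, differed by −2.06 from its mean on the other 13 knockdown arrays, and that of ZNF254 by −1.13. The GTF2I cluster, shared with GTF2IP4 and GTF2IP1, differed by −2.26 on the array titled GTF21. The exceptions were ZNF43, which ranked 3 from the lowest on its own array with a difference of −0.38, and the cluster shared by ZNF100 and ZNF430. That shared cluster ranked 6 with a difference of −0.07. ZNF528 and the cluster shared by ZNF665 and ZNF28 ranked lowest at dim levels of 4.54 and 3.295, with small differences of −0.40 and −0.18. KIT, the receptor kinase that drives GIST, averaged 13.25 ± 0.19 in zinc finger knockdowns and 13.31 ± 0.23 in other knockdowns (SD, n = 10 and 4), and ANO1, a chloride channel used to diagnose GIST, averaged 12.92 ± 0.15 and 12.96 ± 0.14 in the same order. The defining epithelial gene CDH1 averaged 5.72 ± 0.12 in zinc finger knockdowns and 5.88 ± 0.20 in other knockdowns, and the endothelial gene PECAM1 5.20 ± 0.16 and 5.41 ± 0.17, all below the array median of about 7.80. The keratin KRT18, also on the epithelial list, lay above that median, with 9.82 ± 0.28 in zinc finger knockdowns, 9.95 ± 0.14 in other knockdowns and 10.38 in siCON.

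Zinc finger knockdowns lay nearer to the siCON level than other knockdowns did. On zinc finger arrays 210 to 695 clusters lay at least 1 from the siCON mean, with a median of 304.5. ZNF431 had the most, 265 higher and 430 lower, followed by ZNF85 with 505 in all, and ZNF43 had the fewest. On other arrays the counts were 520 (GTF21), 1127 (IGF2R), 604 (IGFBP2) and 787 (RASSF8). The groups averaged 362.2 ± 151 clusters in zinc finger knockdowns and 759.5 ± 269 in other knockdowns (SD, n = 10 and 4), a difference of −397. It was larger than the spread between arrays (two-sided exact permutation test over all choices of 4 of 14 arrays, p = 0.005, adjusted p = 0.015 over 3 values per array). The groups overlapped, since ZNF431 lay above both GTF21 and IGFBP2. Without the IGF2R and RASSF8 arrays the difference was −200 and was no longer past the threshold (exact permutation p = 0.0909).

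**Figure D1:**
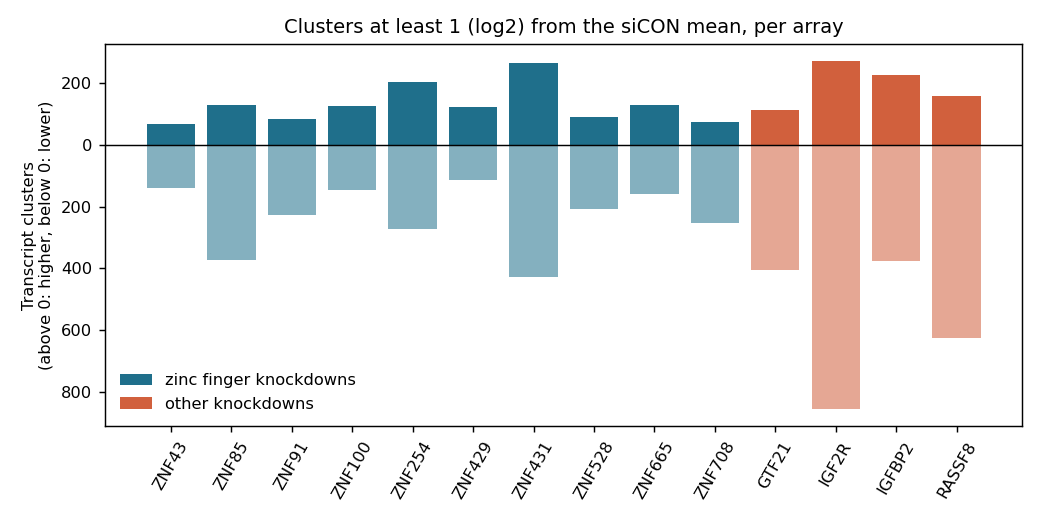
Transcript clusters at least 1 on the log2 scale above (upward bars) or below (downward bars) the mean of the 2 siCON arrays, for each of the 10 zinc finger and 4 other knockdown arrays, 1 array per bar. IGF2R had 856 clusters lower and 271 higher, the largest counts in both directions, and of the zinc finger arrays ZNF431 had the most.

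The level and width of the arrays were compared next. The median over clusters averaged 7.80 ± 0.03 on zinc finger arrays and 7.82 ± 0.03 on other arrays (SD, n = 10 and 4; exact permutation p = 0.24, adjusted p = 0.24). Over the 14674 brighter clusters alone the difference in median was 0.05, higher in zinc finger knockdowns (exact permutation p = 0.00599). The SD over clusters averaged 2.223 ± 0.025 on zinc finger arrays and 2.197 ± 0.035 on other arrays (exact permutation p = 0.137, adjusted p = 0.206). The difference in SD was 0.04 without the IGFBP2 array (exact permutation p = 0.028) and 0.000805 without the IGF2R and RASSF8 arrays (exact permutation p = 0.97). Over the arrays of a group, a cluster's own SD had a median of 0.19 among zinc finger knockdowns and 0.22 among other knockdowns, and it was larger among the other knockdowns in 58.8% of clusters (56.6% after quantile normalization, which gives every array the same distribution of values).

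Each array was set beside the others by the correlation of its deviations from the mean of the 14 knockdown arrays, a description across clusters that share probes and scaling. Each array is part of that mean, so even unrelated arrays have a slightly negative r on average. IGF2R and RASSF8 were most alike (r = 0.399), and GTF21 came next to both (r = 0.295 with IGF2R and 0.21 with RASSF8). IGFBP2 had a negative r with GTF21 (−0.302), IGF2R (−0.382) and RASSF8 (−0.236), and was nearest to ZNF429 (r = 0.224) and then ZNF665 (r = 0.171). With the remaining zinc finger arrays its r ran from −0.198 (ZNF85) to 0.0189 (ZNF100). Among zinc finger arrays, ZNF85 was nearest to IGF2R (r = 0.219). ZNF431 was nearest to IGF2R as well, with a low r of 0.0761. Pairs of other knockdowns ran from −0.382 to 0.399 and mixed pairs from −0.523 to 0.224, while pairs of zinc finger arrays had a median of −0.049 and reached 0.23, between ZNF100 and ZNF429. After quantile normalization IGF2R and RASSF8 were again nearest to each other (r = 0.366) and IGFBP2 was again nearest to ZNF429 (r = 0.201). The nearest array of ZNF429 was ZNF100 on the deposited values and IGFBP2 after quantile normalization.

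Responses of a single array were counted as clusters on which it lay at least 0.5 beyond all 15 other arrays. Among zinc finger arrays the counts ran from 11 (ZNF708) and 33 (ZNF665) to 79 (ZNF254) and 134 (ZNF431). They were 61 for GTF21, 228 for IGF2R, 103 for IGFBP2 and 96 for RASSF8. ZNF431 led with CLCA2, a p53-induced regulator of epithelial adhesion, at 7.12 against 5.74 on the next array, and ended with SELENOP, the plasma selenium carrier, at 8.29 against 9.61. ZNF91 led with SULT1B1, a cytosolic sulfotransferase, at 9.57 against 8.04, and ZNF100 with S100A10, the annexin A2 partner, at 7.72 against 6.46. On the ZNF429 array CCND1, the G1 cyclin D1, lay lowest at 9.80 against 10.60. On the IGFBP2 array TNFAIP3, the inhibitor of NF-kB signaling known as A20, lay highest at 9.78 against 8.60. These extremes are descriptions of single arrays, with no replicate to test them.

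Across the 22011 clusters no cluster was called between the 2 kinds of knockdown. With limma and Benjamini-Hochberg adjustment 0 were called higher and 0 lower in zinc finger knockdowns at an adjusted p under 0.05, and the smallest adjusted p was 0.0848. The pooled-variance t-test of the study's methods called 0 after Bonferroni and 0 after Benjamini-Hochberg adjustment. At an unadjusted p under 0.05, limma gave 1262 clusters higher (5.73%) and 2761 lower (12.5%), and the methods' t-test 1085 and 2873. The differences were small: their median size was 0.14, and 10 clusters differed by at least 1, 8 higher and 2 lower. All 10 zinc finger arrays lay above all 4 others on 36 clusters (0.164%) and below them on 42 (0.191%). After quantile normalization these were 33 and 59, of which 19 and 22 were among those of the deposited values, and again 0 were called.

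DCBLD2, a neuropilin-like membrane receptor, headed the genes whose groups did not overlap. It ranged from 9.34 to 9.68 with a median of 9.49 in zinc finger knockdowns, and had 8.74 on the GTF21 array, 9.06 on IGF2R, 8.97 on IGFBP2 and 9.01 on RASSF8. Its difference was 0.56 (SE 0.09, limma adjusted p = 0.0848), and 0.51 after quantile normalization. The siCON level was 8.72, so the zinc finger arrays lay farther from siCON than the other knockdowns did. RAC1, which drives the formation of lamellipodia, showed the same order, with 7.60 to 7.87 (median 7.75) in zinc finger knockdowns, 7.46, 7.39, 7.41 and 7.25 on the GTF21, IGF2R, IGFBP2 and RASSF8 arrays, and 7.16 in siCON. Its difference was 0.36 (limma adjusted p = 0.233).

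The other higher genes mostly had a siCON level on the zinc finger side. KIFBP, which binds kinesins and restrains their motors, had 9.45 to 10.04 (median 9.60) in zinc finger knockdowns, 8.94, 9.37, 9.23 and 8.97 in other knockdowns in the order above, and 9.90 in siCON. OBI1, a ubiquitin ligase of replication origins, had 8.22 to 8.70 (median 8.47) in zinc finger knockdowns, 7.98, 8.01, 8.17 and 7.88 in other knockdowns, and 8.81 in siCON. SEC61A2, a translocon subunit, had 8.52 to 9.03 (median 8.85) in zinc finger knockdowns, 8.203, 8.51, 8.202 and 8.43 in other knockdowns, and 9.43 in siCON. In each of these 3 genes the other knockdowns lay farther below siCON than the zinc finger knockdowns did, and for KIFBP, OBI1 and SEC61A2 the groups overlapped after quantile normalization. The remaining 7 genes by this order were H2BC3, a core histone that was dim on all arrays, SANBR, NUDT13, PABIR2, CCDC138, WDCP, and NSUN3, the methyltransferase of mitochondrial tRNA(Met). Over the 12 higher genes the differences ran from 0.30 (NSUN3) to 0.75 (H2BC3), and the siCON mean was nearer to the zinc finger mean in 9 of them.

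Among the lower genes FNDC5, the precursor of irisin, had 7.23 to 7.65 (median 7.42) in zinc finger knockdowns, 7.75, 7.75, 7.85 and 7.91 on the GTF21, IGF2R, IGFBP2 and RASSF8 arrays, and 7.11 in siCON. Its difference was −0.38 (limma adjusted p = 0.233). CISH, which restrains cytokine signaling through STAT5, had 7.97 to 8.42 (median 8.2) in zinc finger knockdowns, 8.52, 8.55, 8.46 and 8.48 in other knockdowns, and 8.14 in siCON, a difference of −0.29 (limma adjusted p = 0.233). For both genes all 4 other knockdowns stood above siCON and the zinc finger mean lay between, though for CISH the lowest zinc finger arrays lay below siCON. AQP3, a water and glycerol channel, had 6.74 to 7.17 (median 6.91) in zinc finger knockdowns, 7.29, 7.34, 7.18 and 7.28 in other knockdowns, and 6.87 in siCON. The other 9 were TMEM277P, SH2D3C, SYT2, ITIH5, OR4K17, OTOP3, SPATA31E1, HBM and FOXI2. For the 12 lower genes the differences ran from −0.42 (TMEM277P) to −0.29 (CISH), and in all 12 the siCON mean was nearer to the zinc finger mean. Of the 24 genes, 9 higher and 9 lower also had groups without overlap after quantile normalization.

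**Figure D2:**
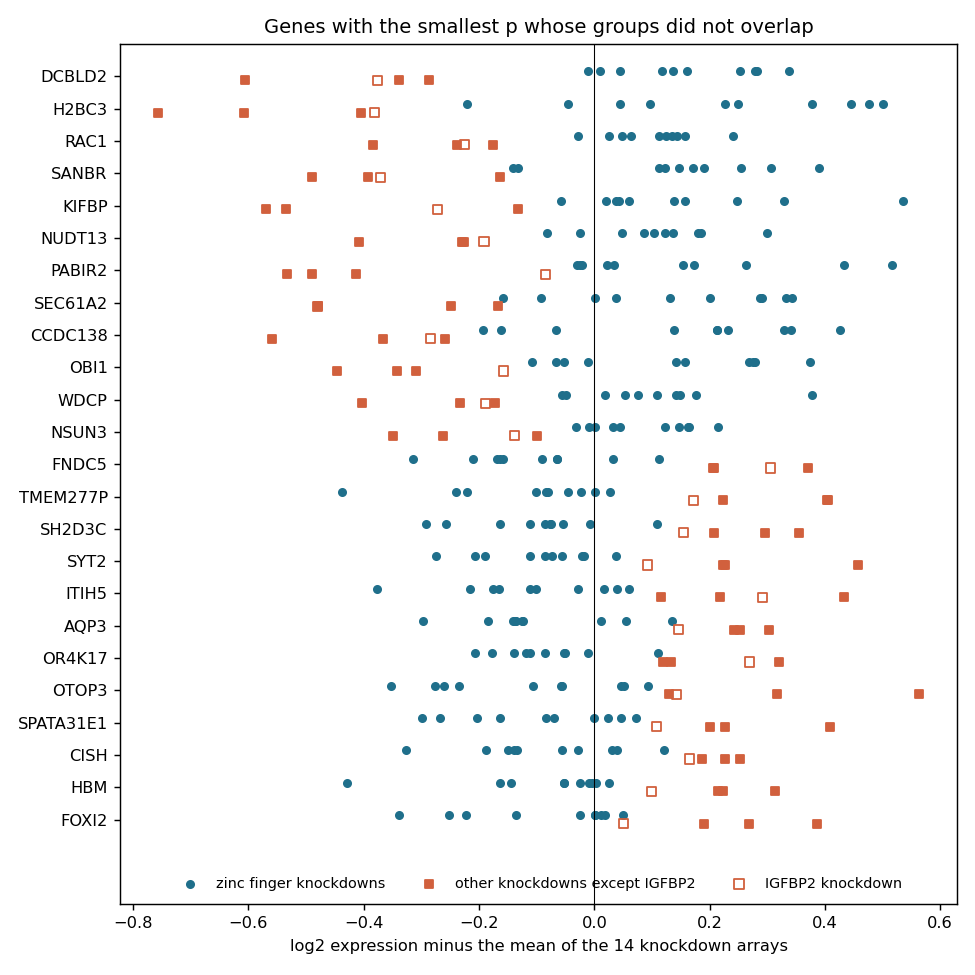
Log2 expression of the 12 higher and 12 lower genes with the smallest p among those whose groups did not overlap, as the difference from the mean of the 14 knockdown arrays, with 1 symbol per array (dots, zinc finger knockdowns; squares, other knockdowns, the IGFBP2 array open). The IGFBP2 array was among the squares nearest to the dots in PABIR2, HBM and FOXI2 and lay among the other squares in DCBLD2 and FNDC5.

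The number of called clusters depended on the IGFBP2 array. Without it, limma called 589 clusters higher (2.68%) and 2111 lower (9.59%) in the 10 zinc finger knockdowns than in GTF21, IGF2R and RASSF8. Leaving out any other single array called at most 1 cluster, which was higher and was found without RASSF8. Array weights, which let limma count deviating arrays less, called 177 higher and 517 lower. Without the IGFBP2 array the groups did not overlap on 346 of the 22011 clusters higher and 2043 lower. Groups separate more easily with an array fewer to clear. Leaving out GTF21, IGF2R or RASSF8 instead gave 107, 82 and 74 higher and 84, 70 and 71 lower. Without the IGFBP2 array the array SD differed between the groups too, as given above, and the part of that in the calls was not tested. Quantile normalization without IGFBP2 called 498 higher and 1203 lower, of which 409 and 1116 were among the calls on the deposited values, and cyclic loess, which removes trends on brightness, called 361 and 377, of which 299 and 374 were among them. The number of lower calls thus varied with the scaling far more than the number of higher calls.

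**Figure D3:**
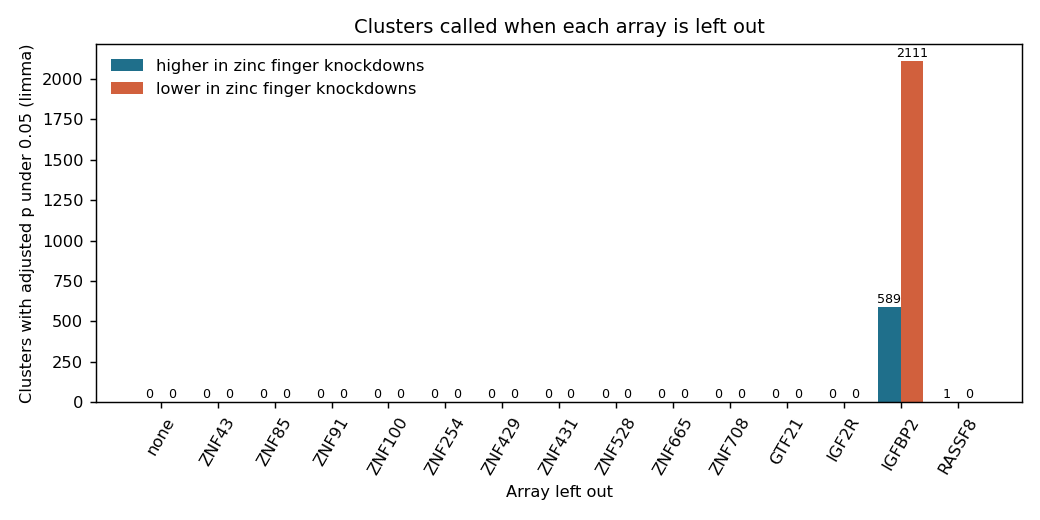
Transcript clusters with a limma adjusted p under 0.05 that were higher or lower in zinc finger than in other knockdowns, with no array left out and with each of the 14 arrays left out in turn. Bars above 1 appear for the IGFBP2 array alone, with 589 higher and 2111 lower.

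All 24 genes named above were called higher or lower in zinc finger than in other knockdowns by this test on 13 arrays. It shares these arrays with the fit that picked the genes. The limma adjusted p was 0.0209 for DCBLD2 and 0.0217 for RAC1. Higher and lower refer here to the other knockdowns and not to siCON. Genes of the lists below that were called higher without IGFBP2 included CLOCK, a core activator of the circadian clock (difference 0.74, limma adjusted p = 0.0251). MRPS10 of the mitochondrial ribosome (0.80, adjusted p = 0.0219), the splicing regulator TRA2A (0.51, adjusted p = 0.0251) and the microRNA processing enzyme DROSHA (0.30, adjusted p = 0.0437) were called higher too. Genes called lower included BBC3, the p53 target PUMA (−0.42, adjusted p = 0.0229), and IGFBP4 (−0.47, adjusted p = 0.0238). The cytokine IL1B (−0.48, adjusted p = 0.0217) and COL6A3, a chain of collagen VI (−0.43, adjusted p = 0.0217), were also called lower. With the IGFBP2 array in the fit none of these was called. COL6A3 was dim, and its difference in the fit with IGFBP2 was −0.31, or −0.16 after cyclic loess. IL1B had 5.50 to 5.95 on zinc finger arrays, 5.57 on the IGFBP2 array and 6.15, 6.11 and 6.21 on the GTF21, IGF2R and RASSF8 arrays. MRPS10 had 9.37 to 9.99 on zinc finger arrays, 9.68 on the IGFBP2 array and 8.65, 8.49 and 9.43 on GTF21, IGF2R and RASSF8. In both genes the IGFBP2 array lay within the zinc finger range.

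Brightness moved with the difference. With the clusters in 3 equal bins by mean level, the median difference was −0.10 in the dim bin, −0.04 in the middle bin and 0.04 in the bright bin. After quantile normalization these medians were −0.05, −0.03 and 0.00493, and after cyclic loess they lay between −0.00667 and 0.00548. The share of clusters lower at an unadjusted p under 0.05 was 17.4%, 17.9% and 2.3% from the dim to the bright bin, and 4.67%, 10.9% and 4.1% after cyclic loess. Over all clusters the median difference was −0.02 and 45.3% of clusters lay higher (44.3% after quantile normalization and 49.9% after cyclic loess).

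Along the genome, 20 of 23 chromosomes had a median difference below 0. It was lowest on chromosomes 19 (−0.10 over 948 genes), 20 (−0.09), 16 (−0.08) and 22 (−0.08), and above 0 on chromosomes 2, 4 and 5, with 0.02 on chromosome 5. On chromosome 19 73.2% of genes lay lower in zinc finger knockdowns, where over the genome 8252 of 14232 genes lay lower, with a median of −0.04. After cyclic loess 13 of the 23 chromosomes had a median below 0. After quantile normalization the median of chromosome 19 was −0.09 and after cyclic loess −0.06, in both cases the lowest of all chromosomes. It carries all 10 silenced zinc finger genes. Neither its place nor the order of the other chromosomes was tested.

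Of 42 gene lists, none had a called member, on the deposited, the quantile-normalized or the loess-normalized values, and 18 had a median difference above 0 and 24 below. Without the IGFBP2 array 33 lists had a called member and 6 had a median of the other sign. That fit called 2.68% of all clusters higher and 9.59% lower, so a called member in a list of many genes is not particular to it. The lists are described by their medians and by the members with an unadjusted p under 0.05, of which all clusters give 5.73% higher and 12.5% lower. Without the IGFBP2 array more of all clusters were at that level, 2091 of 22011 higher and 4683 lower. With quantile normalization 4 lists had a median of the other sign (TGF-beta response, ERK pathway feedback, smooth muscle contractile, and Hippo pathway and YAP targets), all with medians within 0.04 of 0.

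**Figure D4:**
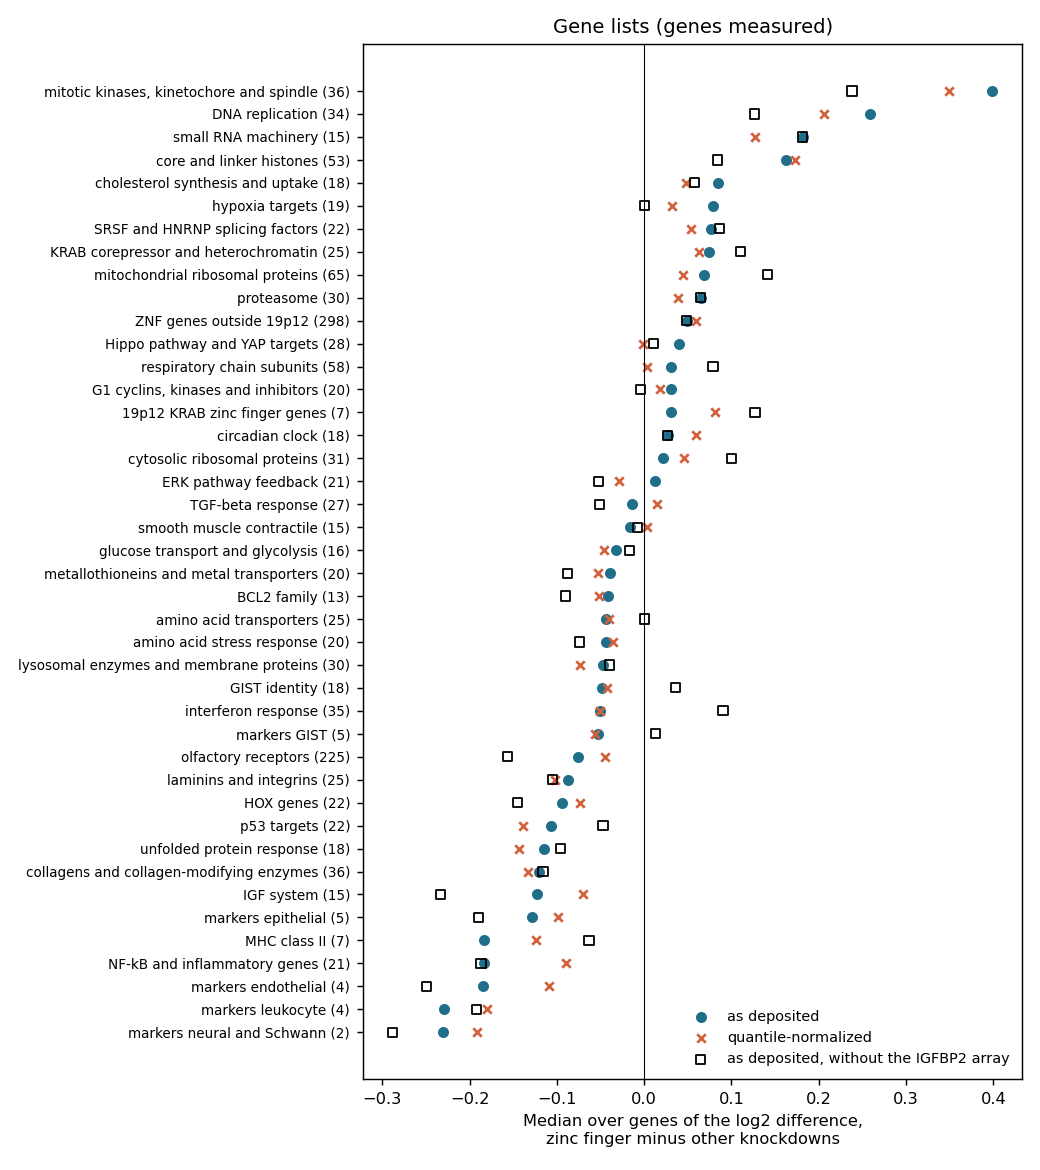
Median over the measured genes of each list of the log2 difference, zinc finger minus other knockdowns, for the deposited values (dots), after quantile normalization (crosses) and for the deposited values without the IGFBP2 array (open squares), with the number of genes measured in brackets. Mitotic and DNA replication genes lay farthest right under the first 2, and both moved toward 0 without the IGFBP2 array.

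Mitotic and DNA replication genes had the largest positive medians on the deposited values, while G1 cyclins, kinases and inhibitors had a median of 0.03, with 3 of 20 higher and 3 lower at an unadjusted p under 0.05. Of 36 mitotic kinase, kinetochore and spindle genes, 36 lay higher in zinc finger knockdowns, 19 at an unadjusted p under 0.05, with a median difference of 0.40 (0.35 after quantile normalization). The mean over these genes ran from 9.09 (ZNF431) to 10.06 (ZNF43 and ZNF528) with a median of 9.76 in zinc finger knockdowns, and was 9.69 on GTF21, 9.43 on IGF2R, 8.90 on IGFBP2 and 9.25 on RASSF8. Both siCON arrays lay higher still than most, at 10.24 and 10.01. All 4 other knockdowns lay below the zinc finger median, but the ZNF431 array lay below all of them except IGFBP2. AURKA, the kinase of spindle poles, had 8.16 to 9.20 (median 8.66) in zinc finger knockdowns and 7.99, 8.40, 7.90 and 8.28 in other knockdowns, in the order GTF21, IGF2R, IGFBP2 and RASSF8. CDC20, which activates the anaphase-promoting complex, had 10.84 to 11.63 (median 11.45) in zinc finger knockdowns and 11.23, 10.99, 10.28 and 10.72 in other knockdowns. MAD2L1, the spindle checkpoint protein that holds CDC20 back, had 8.37 to 9.39 (median 9.21) in zinc finger knockdowns and 9.04, 8.27, 8.48 and 8.28 in other knockdowns. Their differences were 0.54, 0.56 and 0.64 (limma adjusted p = 0.233 for each), the groups overlapped in all 3, and ZNF431 was the lowest zinc finger array in each. Without the IGFBP2 array the median of the list was 0.24, 6 members were higher at an unadjusted p under 0.05 in place of 19, and none was called.

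**Figure D5:**
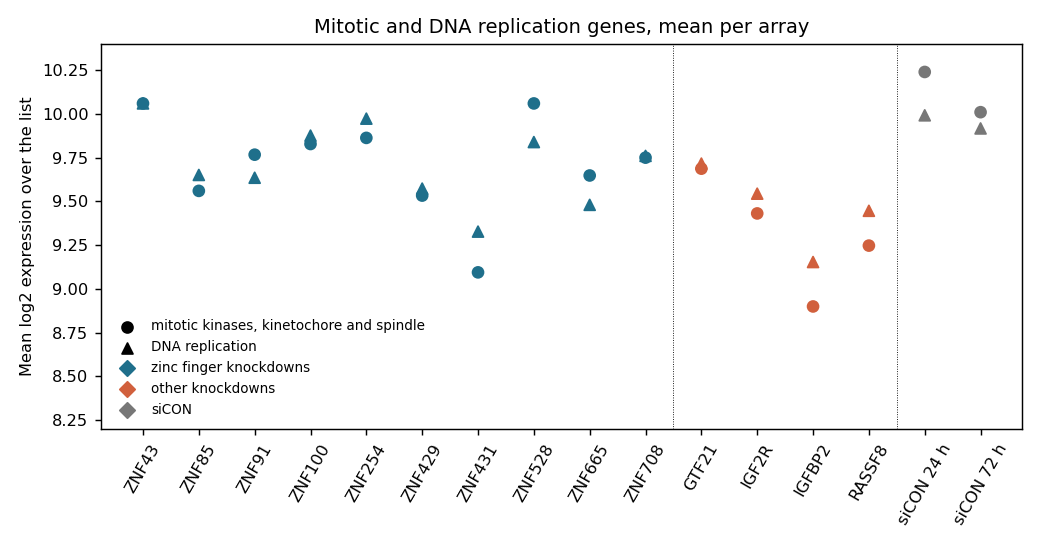
Mean log2 expression over 36 mitotic genes (circles) and 34 DNA replication genes (triangles) on each array, zinc finger knockdowns to the left, then other knockdowns and siCON. The mitotic mean was lowest on the IGFBP2 array (8.90) and next lowest on the ZNF431 array (9.09), and both siCON arrays lay above 10.

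DNA replication genes followed the same pattern with smaller differences. Of 34 genes 33 lay higher, 9 at an unadjusted p under 0.05, with a median of 0.26 (0.21 after quantile normalization). Without the IGFBP2 array the median was 0.13 and lay below those of the small RNA (0.18) and mitochondrial ribosomal (0.14) lists. In that fit 3 of the 34 genes were higher at that level, near the share of all clusters (2091 of 22011). PRIM1, the catalytic primase subunit, averaged 8.31 ± 0.33 in zinc finger knockdowns and 7.79 ± 0.25 in other knockdowns, a difference of 0.52 (SD, n = 10 and 4; limma adjusted p = 0.233). POLE2 of DNA polymerase epsilon averaged 7.80 ± 0.35 in zinc finger knockdowns and 7.31 ± 0.18 in other knockdowns. MCM6 of the replicative helicase averaged 9.64 ± 0.22 in zinc finger knockdowns and 9.34 ± 0.04 in other knockdowns. UHRF1, which guides maintenance DNA methylation in S phase, averaged 9.90 ± 0.42 in zinc finger knockdowns and 9.31 ± 0.56 in other knockdowns. Of 53 histone genes 38 lay higher, 6 at an unadjusted p under 0.05 and 4 lower, with a median of 0.16. H3C10 had 11.65 to 12.35 (median 11.97) in zinc finger knockdowns and 11.77, 11.66, 11.28 and 11.21 on GTF21, IGF2R, IGFBP2 and RASSF8 (limma adjusted p = 0.233). Fewer dividing cells and less RNA of these genes per cell cannot be told apart on these arrays.

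The promoter of CDC20 is shown because mitotic genes lay on one side together and share promoter elements known from the cell cycle: CCAAT boxes, bound by NF-Y, and the cell cycle homology region TTTGAA, bound by the DREAM and MMB complexes. The 150 bases before its start in RefSeq (GRCh38.p14, chr1:43358831-43358980, plus strand) are given with both motifs in capitals.
CDC20: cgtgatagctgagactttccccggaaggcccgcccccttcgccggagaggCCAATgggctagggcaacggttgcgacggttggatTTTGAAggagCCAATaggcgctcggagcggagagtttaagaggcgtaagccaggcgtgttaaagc
The stretch holds 2 CCAAT matches and 1 TTTGAA match, all on the strand printed. The same length before the MAD2L1 start (chromosome 4, minus strand) holds neither, though the gene had the larger difference. Both motifs were searched on both strands, and they do not overlap each other here. Of 29 mitotic genes with a RefSeq promoter, 22 held CCAAT (75.9%, against 24.4% of all 27305 promoters) and 13 held TTTGAA (44.8%, against 7.44%). Of 30 DNA replication promoters 17 held CCAAT (56.7%) and 0 held TTTGAA. A match is a match of letters and not a bound site.

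Genes of small RNA processing and of silencing by KRAB proteins lay mostly higher. Of 15 small RNA genes 12 lay higher, 3 at an unadjusted p under 0.05, with a median of 0.18 (0.13 after quantile normalization). DROSHA averaged 9.86 ± 0.13 in zinc finger knockdowns and 9.43 ± 0.26 in other knockdowns (difference 0.43, limma adjusted p = 0.233), and the siRNA effector AGO2 averaged 10.97 ± 0.16 and 10.68 ± 0.34 in the same order. Of 25 genes of the KRAB corepressor and heterochromatin 21 lay higher, with a median of 0.07. This list was bright (mean 9.72 in zinc finger knockdowns), and the bright bin of all clusters had a median of 0.04. After cyclic loess the medians were 0.06 for the list and 0.00548 for the bright bin. At an unadjusted p under 0.05, 3 of the 25 genes were higher and 1 lower, and after quantile normalization 1 was higher and 2 lower. The heterochromatin proteins went both ways: CBX5 averaged 12.87 ± 0.16 in zinc finger knockdowns and 12.60 ± 0.25 in other knockdowns, while CBX1 averaged 9.94 ± 0.13 and 10.18 ± 0.17. The 19p12 zinc finger genes had 7 of 30 members with a cluster of their own, with a median of 0.03. These members include ZNF43 and ZNF254, each silenced on a zinc finger array, which enters their group means. Of 298 ZNF genes elsewhere 19 lay higher and 20 lower at an unadjusted p under 0.05, with a median of 0.05. This balance varied with the scaling, with 32 higher and 22 lower after quantile normalization and 41 and 16 after cyclic loess. ZNF415 averaged 7.29 ± 0.12 in zinc finger knockdowns and 6.80 ± 0.29 in other knockdowns, where IGFBP2 had 7.10.

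Mitochondrial ribosomal proteins had a median of 0.07 (0.03 after cyclic loess), with 9 of 65 higher and 0 lower at an unadjusted p under 0.05. MRPS10 averaged 9.65 ± 0.20 in zinc finger knockdowns and 9.06 ± 0.58 in other knockdowns. Splicing factors of the SRSF and HNRNP families had a median of 0.08 (0.06 after cyclic loess), with 3 of 22 higher and 0 lower. The clock gene CLOCK stood out within its list, whose median was 0.03. It had 9.85 to 10.92 (median 10.52) in zinc finger knockdowns, 9.81, 9.48, 10.02 and 9.77 on GTF21, IGF2R, IGFBP2 and RASSF8, and 10.80 in siCON (difference 0.66, limma adjusted p = 0.233).

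Inflammatory, matrix and stress genes had negative medians. Of 21 NF-kB and inflammatory genes 19 lay lower in zinc finger knockdowns, 8 at an unadjusted p under 0.05, with a median of −0.18 (−0.09 after quantile normalization, −0.07 after cyclic loess). Their mean was 7.08 ± 0.10 in zinc finger knockdowns, with ZNF85 highest at 7.31, 7.26 ± 0.07 in other knockdowns and 6.94 in siCON. IL1B averaged 5.68 ± 0.15 in zinc finger knockdowns and 6.01 ± 0.30 in other knockdowns, a dim level on both. The chemokine CCL5 averaged 8.16 ± 0.17 in zinc finger knockdowns and 8.46 ± 0.19 in other knockdowns.

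Of 36 collagen genes 27 lay lower, 6 at an unadjusted p under 0.05, with a median of −0.12. Of 25 laminin and integrin genes 19 lay lower, 7 at that level, with a median of −0.09. After quantile normalization 7 collagen and 5 laminin and integrin genes were lower at that level, with medians of −0.13 and −0.10. Cyclic loess left 4 and 3, with medians of −0.10 and −0.07. ITGB2, the integrin chain of leukocytes, averaged 7.10 ± 0.12 in zinc finger knockdowns and 7.42 ± 0.19 in other knockdowns. In the IGF system 4 of 15 lay lower and 1 higher at an unadjusted p under 0.05, with a median of −0.12 (−0.07 after quantile normalization and −0.00456 after cyclic loess). Without the IGFBP2 array it was −0.23, with 7 lower at that level. IGFBP4, a secreted IGF binding protein, averaged 8.34 ± 0.15 in zinc finger knockdowns and 8.72 ± 0.23 in other knockdowns. Genes of the unfolded protein response lay lower in 16 of 18 cases, 2 at that level, with a median of −0.12, and XBP1, its spliced transcription factor, averaged 10.22 ± 0.17 in zinc finger knockdowns and 10.49 ± 0.21 in other knockdowns. Among p53 targets 16 of 22 lay lower, 2 at that level. For both lists the share at that level was below the 12.5% of all clusters. BBC3 averaged 8.52 ± 0.12 in zinc finger knockdowns and 8.87 ± 0.20 in other knockdowns (difference −0.35, limma adjusted p = 0.233).

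Lists of genes from other tissues had negative medians as well, and several were dim. The olfactory, endothelial, leukocyte and neural lists had means of 5.23, 5.98, 6.17 and 5.27 in zinc finger knockdowns. Over all clusters of the dim bin the median difference was −0.10. Of 22 HOX genes 18 lay lower, 4 at an unadjusted p under 0.05, with a median of −0.09 (−0.03 after cyclic loess). Of 225 olfactory receptor genes, which serve in the nose, 157 lay lower, 26 at that level and 3 higher, with a median of −0.08 (−0.05 after quantile normalization and −0.01 after cyclic loess). The share lower at that level was below the 12.5% of all clusters, and cyclic loess gave 12 higher and 9 lower. Without the IGFBP2 array the median was −0.16, with 51 of 225 lower, where all clusters gave 4683 of 22011 lower at that level. The mean of the olfactory genes was 5.10 to 5.38 on zinc finger arrays, 5.10 on the IGFBP2 array and 5.38 to 5.42 on the GTF21, IGF2R and RASSF8 arrays. The marker lists of epithelial, endothelial, leukocyte and neural cells lay lower in 5 of 5, 4 of 4, 4 of 4 and 2 of 2 measured genes, with medians of −0.13, −0.19, −0.23 and −0.23, and those of GIST in 5 of 5, with a median of −0.05 (0.01 without the IGFBP2 array). After cyclic loess the medians of the epithelial, endothelial, leukocyte and neural lists were −0.11, −0.06, −0.12 and −0.14, and that of GIST −0.07. The part of brightness or of these cell types in the differences was not tested.

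MHC class II genes lay lower in 7 of 7 cases, with a median of −0.18 (−0.12 after quantile normalization, −0.06 without the IGFBP2 array), but they varied more among zinc finger arrays than between the groups. Their mean ran from 6.65 (ZNF43) to 8.06 (ZNF91) in zinc finger knockdowns and was 7.95, 7.59, 8.01 and 7.39 on GTF21, IGF2R, IGFBP2 and RASSF8. Interferon response genes had a median of −0.05, and of 0.09 without the IGFBP2 array. Their mean was 8.15 to 8.90 on zinc finger arrays, against 9.01 on GTF21, 8.99 on IGFBP2, 8.14 on IGF2R and 8.23 on RASSF8, so the other knockdowns formed a high and a low pair on either side of most zinc finger arrays.

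The genes that varied most among the zinc finger knockdowns were secreted and stress proteins, and none separated the kinds of knockdown. IGFBP5 ran from 7.38 to 10.53 (median 7.94) in zinc finger knockdowns and was 8.33, 9.55, 7.92 and 7.28 on GTF21, IGF2R, IGFBP2 and RASSF8. CXCL10, an interferon-induced chemokine, ran from 8.25 to 11.84 (median 10.52) in zinc finger knockdowns and was 12.24, 9.48, 11.00 and 9.67 on the other 4. ENPP2, the secreted enzyme autotaxin, ran from 9.46 to 11.92 (median 11.17) in zinc finger knockdowns and was 10.80, 11.83, 11.70 and 12.14. In each gene the zinc finger range held at least 3 of the other arrays. CCN2, NDRG1, HMOX1, SERPINE2 and A2M completed these 8 genes, whose smallest unadjusted p in limma was 0.123.

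KIT and 7 genes that the study followed as common to all knockdowns had groups that overlapped. POSTN, which encodes periostin, had 7.24 to 8.71 (median 7.84) in zinc finger knockdowns, 8.37, 8.58, 7.88 and 7.26 in other knockdowns and 10.14 in siCON. TGFB3 averaged 7.83 ± 0.30 in zinc finger knockdowns, had 8.31, 7.86, 7.40 and 7.70 in other knockdowns, and 9.47 in siCON. TMCO1, an endoplasmic reticulum calcium channel, averaged 11.42 ± 0.22 in zinc finger knockdowns, had 11.49, 11.25, 11.62 and 11.57 in other knockdowns, and 10.11 in siCON. Together with KIT, NEDD9, ENPP5, DDAH1 and SI these 8 genes differed between the kinds by at most 0.16, with a smallest unadjusted p of 0.444. MRPL30, another such gene, is not described here.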

How the data were processed

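RNA of 16 GIST-T1 samples was hybridised to Affymetrix Human Exon 1.0 ST arrays. With the oligo package the authors ran RMA, summarized the core probes to genes and deposited log2 values for 22011 transcript clusters. The submitters' processing notes name oligo, RMA and hg19 without versions. These values were used as deposited. The number of arrays, and the different targets among them, limit the precision.

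Names came from GEO's platform annotation, with 14432 clusters carrying 1 symbol, 2408 several and 5171 none, and 197 genes had several clusters, of which the brightest was used. RefSeq (GRCh38.p14) gave chromosomes and promoters, for 14197 genes on 23 chromosomes. Groups came from the titles. The 10 zinc finger and 4 other knockdown arrays were compared with limma 3.58.1 (lmFit, eBayes, R 4.3.3) without covariates, with two-sided p-values adjusted by Benjamini-Hochberg across the 22011 clusters at a threshold of 0.05. On simulated data of this comparison over 22011 clusters, 100% of changes of −2 and 2, 90% of −1 and 88% of 1 were recovered. Of the simulated calls 6.897% were false. The simulated arrays were independent and sizes below 1 were not simulated, while the median size of the differences here was 0.14. The recovery of such small differences is therefore not known. Values per array were compared by two-sided exact permutation over all choices of 4 of 14 arrays, whose smallest p is 0.000999. Python 3.11.15, numpy 2.4.6, pandas 2.3.3 and matplotlib 3.10.9 were used.

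Named were the 12 higher and 12 lower genes with the smallest p whose groups did not overlap (none was called), the silenced genes, up to 3 members of a list with the smallest p, the 8 genes most variable over zinc finger arrays above the median brightness, and 8 genes of the study. CLCA2, SELENOP, SULT1B1, S100A10, CCND1 and TNFAIP3 were picked after their values were seen, as genes with a large gap on 1 array. Members and lists were chosen with earlier results of these data known. Alternatives were other scalings, filters and variance models, each array left out, and pairs of arrays left out. The fits on quantile- and loess-normalized values without IGFBP2, the single-array counts, the chromosome medians and the promoter motifs were added after the data were seen. The siRNA screen and drug tests were not analysed here.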

Additional observations from a re-analysis of the deposited data

Results flagged for a closer look

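Values of single arrays stood apart from their group in 5 of 180 gene or list and group combinations. Chance alone would mark about 1 in 20, which is more than were found. In each case the gap to the nearest array of the group was a large part of the group's whole range. HBM, a globin gene, was 7.501 on the ZNF429 array, below all other zinc finger knockdowns. NDRG1, a hypoxia-induced gene, was 11.55 on the ZNF431 array, the highest of the zinc finger knockdowns. The mean of the MHC class II genes was 6.645 on the ZNF43 array, the lowest of the zinc finger knockdowns. The mean of the proteasome genes was 10.31 on the IGF2R array, below the 3 other arrays of its group. The mean of the olfactory receptor genes was 5.097 on the IGFBP2 array, below the 3 other arrays of its group.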

How the results depend on the processing

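The counts of called clusters were 0 under most alternatives. Leaving out 1 array gave 0 to 589 higher and 0 to 2111 lower, the highest of both without IGFBP2, and 1 higher without RASSF8. Array weights gave 177 higher and 517 lower, leaving out IGF2R and RASSF8 2 higher, quantile normalization without IGFBP2 498 higher and 1203 lower, and cyclic loess without IGFBP2 361 higher and 377 lower, the last 2 chosen after seeing the data. At an unadjusted p under 0.05, cyclic loess gave 1488 higher and 1443 lower, the array SD as a covariate 855 and 975, and the 14674 brighter clusters alone 1031 and 1494, against 1262 and 2761. The difference in array SD ran from 0.0122 to 0.0404 when 1 array was left out, the highest without IGFBP2 (exact permutation p = 0.028). The difference in array median turned to 0.000477 without IGF2R and RASSF8 (p = 0.955 by exact permutation) and to 0.0507 on the brighter clusters alone (p = 0.00599 by exact permutation). The difference in clusters beyond the threshold from siCON was −200 without IGF2R and RASSF8 (p = 0.0909 by exact permutation) and −12.1 at a threshold of 2 (p = 0.121 by exact permutation). Uncalled gene differences near 0 turned sign: TGFB3 was −0.0631 with array weights, −0.0261 without IGF2R and RASSF8 and −0.128 to 0.175 with 1 array left out, NEDD9 −0.0165 with weights and −0.109 to 0.237, DDAH1 0.0791 without IGF2R and RASSF8 and −0.262 to 0.0146, POSTN −0.383 to 0.0575, and SI 0.00108 median-centred, 0.042 at equal SD, 0.0369 with cyclic loess, 0.0204 with the SD covariate and −0.0613 to 0.0377. The causes were not tested. Of the other values, 796 for genes kept their side and direction, 43 passed the threshold, and for lists 1021 moved little and 27 moved by more than the spread. No paired analysis was possible because each knockdown is 1 array and the replicate numbers only name arrays. With 4 arrays of different targets in 1 group, a difference of 1 array weighs heavily.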
